A study of Mus musculus with 2 samples.

Results

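The genes of the T-cell receptor, its CD3 signaling chains and its coreceptors were examined in a ChIP-seq of Myc-Tag Dlx5 from a Lck-Dlx5 T-cell lymphoma. In ChIP-seq, DNA fragments bound by a protein are pulled down with an antibody and sequenced, and peak calling turns them into intervals, each with a summit. The members were 10 genes: Tcra, Tcrb, Cd3d, Cd3e, Cd3g, Cd247, Cd4, Cd8a, Cd8b1 and Ptcra. They were chosen by name from the RefSeq annotation of mm10, with Tcra and Tcrb taken as whole loci, out of 21887 protein-coding and 49943 annotated genes. An interval was assigned to each member whose body, extended by 10 kb at both ends, shared 1 bp or more with it. With this definition 7 of the 10 members had an interval, and 7 of the 3477 Myc-Tag intervals were involved. Of all 21887 protein-coding genes 4168 (19.0%) had one by the same definition, as did 11.5% of those of at least 500 kb, the length class of Tcra and Tcrb.

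The study had 2 libraries, 1 Myc-Tag ChIP and 1 Input, both from a lymphoma of mice carrying Dlx5 fused to a Myc-Tag under Lck control, and no treatment is given. The labels describe a primary tumor, with the strain as C57BL/6 for the ChIP and C57BL/7 for the Input, whereas the methods name 1 cell line grown from such a lymphoma and an IgG control. The age of the animal is given in neither, and the Lck sequences restrict the transgene to T-lineage cells. Peak calls hold no RNA, so the T-cell label could not be checked against marker expression. The height of a summit is a whole-number score without a stated normalization, read totals were not used here, and the depth behind a height is therefore unknown. With 1 library per group there was no replicate check on any height or call, and no p-value was computed.

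A T cell recognizes antigen through a receptor of variable chains, usually α and β, encoded at Tcra and Tcrb. These loci are assembled during thymic development by joining distant V, D and J segments to each other ahead of a constant region. Most such joins remove the DNA between the joined segments. The chains carry no signaling motif of their own, and the signal enters the cell through the CD3γ, CD3δ, CD3ε and ζ chains, encoded by Cd3g, Cd3d, Cd3e and Cd247. CD4 and CD8 bind MHC molecules beside the receptor and bring the kinase Lck to it, and the product of Ptcra pairs with a new β chain at the checkpoint called β-selection. Dlx5 is a homeodomain protein, a class of transcription factors that recognizes short AT-rich words such as TAATT.

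The promoter windows of Cd3g and Cd3d were the only ones among 6 members with a RefSeq window that were touched by an interval. They are shown with those of Cd3e, the third gene of the same cluster and without an interval, and of Cd247, the only member window that held TAATT. Each window runs from 250 bases before to 50 bases after the start of transcription (RefSeq, GRCm38.p6, the assembly known as mm10) and is printed 5′ to 3′ on the strand of the gene. Capitals mark TAATT and the E-box word CAGNTG, read on either strand.
Cd3g, minus strand, chr9:44980382-44980681: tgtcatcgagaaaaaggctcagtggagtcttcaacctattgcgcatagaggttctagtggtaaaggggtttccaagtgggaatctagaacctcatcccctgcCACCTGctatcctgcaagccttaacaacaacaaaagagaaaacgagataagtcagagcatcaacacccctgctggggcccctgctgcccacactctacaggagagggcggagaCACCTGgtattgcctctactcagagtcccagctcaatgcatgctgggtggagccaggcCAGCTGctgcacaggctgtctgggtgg
Cd3d, plus strand, chr9:44981536-44981835: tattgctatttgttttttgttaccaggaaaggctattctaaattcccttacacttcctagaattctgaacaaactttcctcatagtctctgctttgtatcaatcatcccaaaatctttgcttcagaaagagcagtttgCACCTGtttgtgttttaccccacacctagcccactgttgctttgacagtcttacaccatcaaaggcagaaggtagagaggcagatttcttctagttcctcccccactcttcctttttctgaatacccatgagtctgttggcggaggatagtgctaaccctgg
Cd3e, minus strand, chr9:45009562-45009861: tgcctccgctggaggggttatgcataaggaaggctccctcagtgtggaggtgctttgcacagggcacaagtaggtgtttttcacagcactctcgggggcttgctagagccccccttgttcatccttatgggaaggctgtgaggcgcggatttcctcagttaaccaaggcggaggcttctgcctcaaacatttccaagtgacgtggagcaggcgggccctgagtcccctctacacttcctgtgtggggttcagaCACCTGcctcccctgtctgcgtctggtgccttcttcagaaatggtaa
Cd247, plus strand, chr1:165788431-165788730: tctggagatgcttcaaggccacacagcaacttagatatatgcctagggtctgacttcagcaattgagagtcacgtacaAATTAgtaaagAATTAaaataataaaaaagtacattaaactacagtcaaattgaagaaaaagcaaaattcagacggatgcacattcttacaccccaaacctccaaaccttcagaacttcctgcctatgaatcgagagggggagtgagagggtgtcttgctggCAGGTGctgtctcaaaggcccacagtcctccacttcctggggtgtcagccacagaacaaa

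The intervals at the members fell into 3 kinds of position. At the receptor loci, the single interval of each lay beyond the constant region and away from any promoter window of the RefSeq table. At Cd3g, Cd3d and Cd8b1, an interval covered an end of the member itself. At Cd4 and Ptcra, the interval lay outside the member and inside a neighboring gene. The remaining members, Cd3e, Cd247 and Cd8a, had none.

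**Figure D1:**
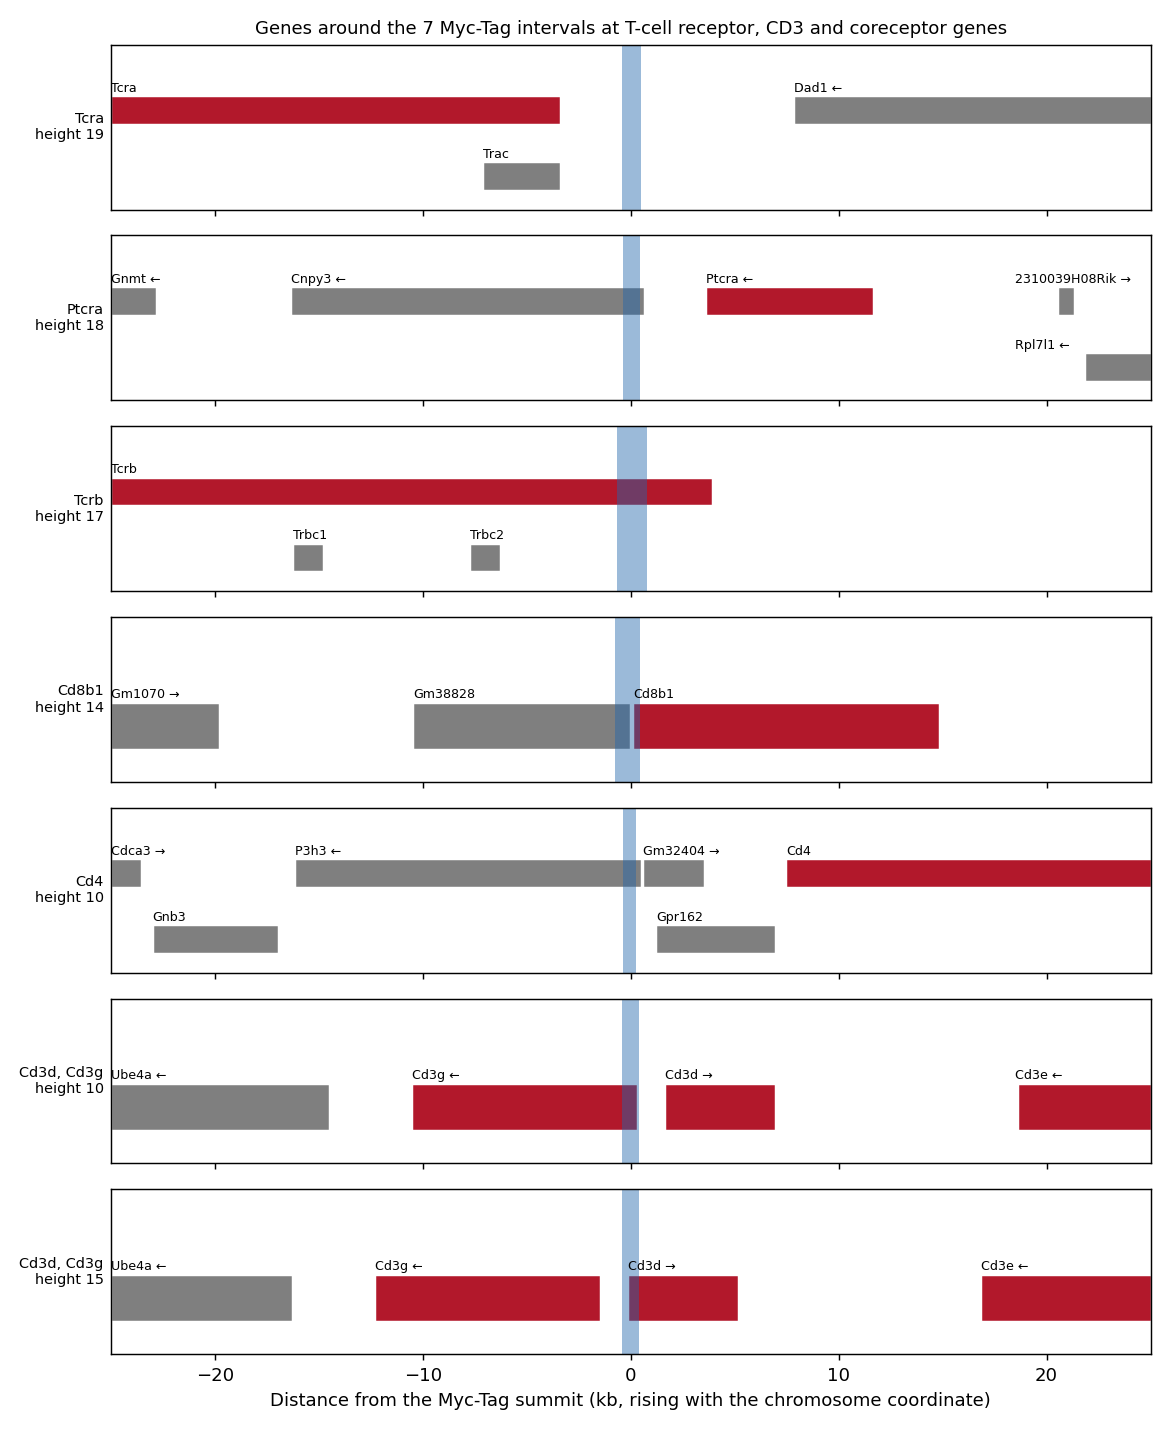
Genes within 25 kb of each of the 7 Myc-Tag intervals, drawn by distance from the summit in kb along the chromosome; red bars are members, gray bars other genes, arrows the strand where the promoter table gives it, and the blue band is the interval. The band falls inside or on the edge of a member at Tcrb, Cd8b1, Cd3g and Cd3d, and outside it at Tcra, Ptcra and Cd4.

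Tcra, which encodes the α chain and holds the δ-chain segments within it, spans chr14:52427967-54224198. Its interval, chr14:54227220-54228115, had the tallest summit of all members, with a height of 19. The summit, at 54227616, lay 3418 bp beyond the end of the constant region Trac, which is also the end of the locus. The 3′ end of the next gene, Dad1, which takes part in protein glycosylation, was 7869 bp from the summit on the other side, with the Dad1 start at 26313 bp, and the interval overlapped no annotated gene. Of the 3477 Myc-Tag summits, 773 (22.2%) were higher and 202 were equal. The enhancer known as Eα, which drives transcription and joining of Tcra, is known to lie in this stretch downstream of Trac. No enhancer coordinates were used here, so the overlap of the interval with Eα was not tested.

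The body of Tcra, 1796232 bp long with 202 annotated segments, held no interval. Of these segments 136 were V, 62 J, 2 D and 2 constant, and only Traj3, Traj2, Traj1 and Trac came within 10 kb of the interval. The preceding Myc-Tag summit on the chromosome was 1950 kb away. Among 3456 distances between neighboring summits, with a median of 192 kb, 10.4% were longer. Rearranged alleles can lack the DNA between joined segments, so a missing interval there cannot be told apart from missing DNA.

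Tcrb, which encodes the β chain, spans chr6:40891296-41558371. Its interval, chr6:41553819-41555270, had a summit height of 17, with 1179 summits (33.9%) higher. At 1452 bp it was the widest at the members, and 145 of the 3477 intervals (4.17%) were wider. The summit lay 6299 bp beyond the constant region Trbc2 and 3213 bp before Trbv31, the only one of 35 V segments placed after the constant regions. The enhancer Eβ is known to lie between Trbc2 and Trbv31, and as at Tcra its overlap with the interval was not tested. Of the 53 segments of the locus, 0 were overlapped and 3 came within 10 kb, namely Trbj2-7, Trbc2 and Trbv31. The 13 protein-coding genes inside the locus, several of them for trypsins, had no interval either, the nearest being Prss2 at 29401 bp from the summit. These genes lie between Trbv1 and the D segments, in DNA that joining can remove. As at Tcra, a missing interval there cannot be told apart from missing DNA.

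**Figure D2:**
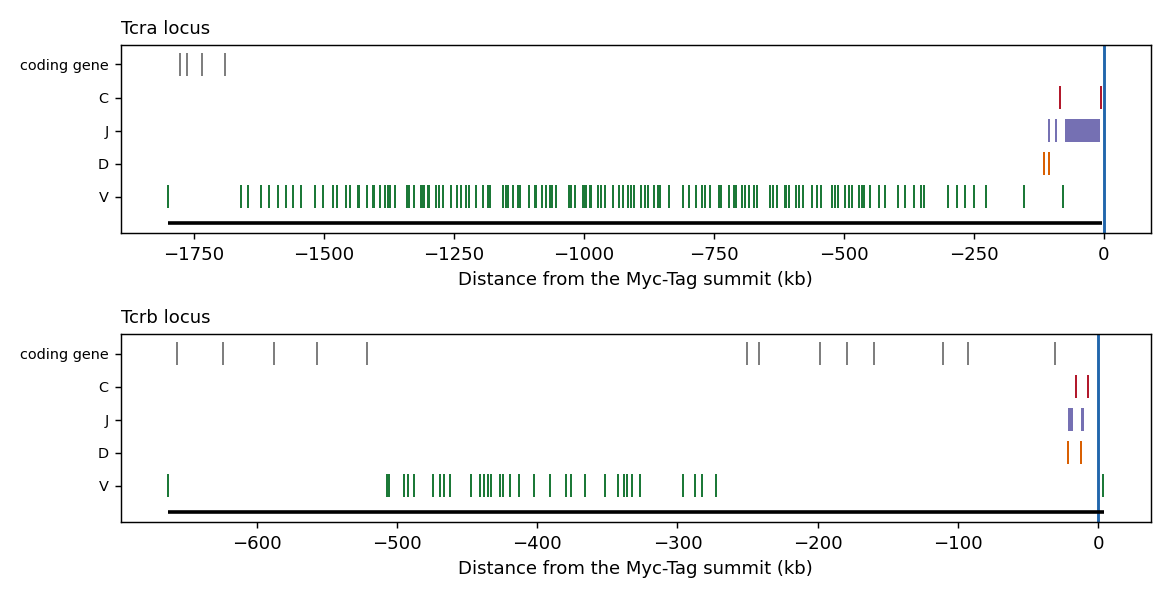
V, D, J and constant (C) segments and protein-coding genes of Tcra and Tcrb by distance from the single Myc-Tag summit of each locus in kb; the blue line is the summit and the black bar the annotated locus. In both loci the summit stands at the constant-region end, with 136 V segments of Tcra and 34 of the 35 V segments of Tcrb on its left.

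As background for loci of this length, 26 of 227 protein-coding genes of at least 500 kb (11.5%) had an interval in the body or within 10 kb. The 2 other T-cell receptor loci had none, since the nearest summit was 68.4 kb from Tcrd, which lies within Tcra, and 1230 kb from Tcrg. The limit given for Tcra applies here too, as a missing interval cannot be told apart from DNA removed by joining.

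Cd3g, Cd3d and Cd3e, which encode the γ, δ and ε chains of CD3, lie side by side on chromosome 9. Cd3g and Cd3d are transcribed away from each other, from starts 1355 bp apart, and each start had an interval of its own. The Cd3d interval, chr9:44981488-44982310, had a height of 15, and its summit lay 102 bp downstream of the Cd3d start. The Cd3g interval, chr9:44979682-44980507, had a height of 10, and its summit lay 322 bp downstream of the Cd3g start. The Cd3d summit stood near the middle of all summits, with 1739 of 3477 higher. The Cd3g summit was among the lowest that were called, with 3367 (96.8%) higher and 16 lower. The summits were 1779 bp apart, so by the 10 kb rule both intervals counted for both genes, although each lay at 1 start.

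All 300 bases of the Cd3d window printed above were inside the Cd3d interval, as were 126 of the 300 bases of the Cd3g window. In the library as a whole, 1854 of 17492 protein-coding genes with a promoter window (10.6%) had at least 1 window touched by an interval. Among the 6 members with a window, 2 did, a number too small to be read against that share. Cd3e was 16.8 kb from the nearest summit, the one at Cd3d, and its own start was 27.7 kb from it. The other strand-resolved starts without an interval were those of Ptcra at 11.6 kb, Cd8a at 50.8 kb and Cd247 at 214 kb from the nearest summit.

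Cd247 encodes the ζ chain, the CD3 component with the most signaling motifs. It spans chr1:165779952-165871153 and was the member farthest from a summit. The nearest, of height 16, was 132 kb beyond the gene and 355 bp from Pou2f1, a gene for a POU homeodomain factor. At this distance Cd247 stood in the middle of the genome, as 49.8% of the protein-coding genes had a nearer summit. At Cd3e, Cd247 and Cd8a binding was not detectable at the calling threshold, which is not to say that it was absent.

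The CD8 coreceptor is a pair of chains, α from Cd8a and β from Cd8b1, whose genes lie next to each other on chromosome 6. Cd8b1, chr6:71322788-71337492, had the interval chr6:71321923-71323098 with a height of 14. The summit was 116 bp outside the low-coordinate end of the gene, and the interval covered that end as well as the end of the noncoding gene Gm38828. Of all summits 2084 (59.9%) were higher, so that Cd8b1 lay just below the median height of 16. Cd8a, chr6:71373427-71379171, had no interval, and its nearest summit was that of Cd8b1, 50.8 kb away. The coreceptor pair thus had 1 interval, at Cd8b1.

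Cd4, chr6:124864693-124888247, was counted for the interval chr6:124856884-124857484. With a height of 10 and a width of 601 bp, this was the narrowest interval at the members and shared the lowest height with that of Cd3g. The summit lay 7461 bp outside Cd4. It was inside P3h3, a gene of collagen modification, 485 bp downstream of the P3h3 start, and the gene Gpr162 stood between it and Cd4. Ptcra, chr17:46755663-46763712, which encodes the pre-T-cell receptor α chain, was counted for the interval chr17:46751683-46752495. Its summit, with a height of 18 (28.0% higher), was 3599 bp outside Ptcra and 150 bp downstream of the start of Cnpy3, a gene for a chaperone of Toll-like receptors. The interval touched the promoter window of Cnpy3 and not that of Ptcra. When each interval was counted for its nearest gene alone, Cd4 and Ptcra had none and 5 of the 10 members kept an interval, an alternative chosen after seeing the data.

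**Figure D3:**
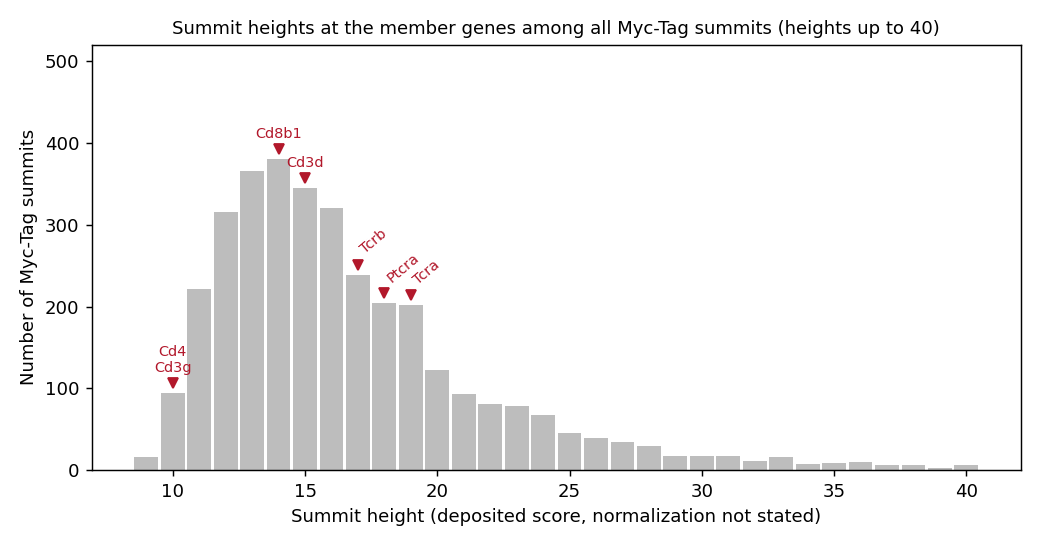
Number of Myc-Tag summits at each height up to 40 (gray bars), with red marks over the heights at which the member intervals stand, each of the 2 intervals of the CD3 pair under the gene whose start it covers. The marks run from 10 at Cd3g and Cd4 to 19 at Tcra, within the main body of the distribution.

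The 7 intervals had heights of 10, 10, 14, 15, 17, 18 and 19, with a median of 15 against 16 for all 3477 summits. By order of height these were the intervals at Cd3g and Cd4, then Cd8b1, Cd3d, Tcrb, Ptcra and Tcra. The intervals of Tcrb, Ptcra and Tcra were at or above the library median, and 1, that of Tcra, reached the 75th percentile of 19. Without replicates, neighbors in this order cannot be called different. Widths ran from 601 to 1452 bp with a median of 826 bp, against 752 bp for all intervals. None of the 7 was called in the Input, and no input height was listed at these positions. Of all 2704 Myc-Tag intervals with a height up to 19, 0 were called in the Input (a count of 0 leaves room for at most 0.111%), and the lowest Myc-Tag height at an input call was 21. The 0.111% takes 3 as the approximate 95% upper limit for a count of 0. The missing input calls at the members were therefore shared with every interval of like height, and this limit covers counting error only. On chromosome 6 lay 3 of the 7 intervals, those of Tcrb, Cd8b1 and Cd4, and 182 of all 3477 (5.23%). This chromosome carries 4 of the 10 members.

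Among the 8 protein-coding members, 5 had an interval in the body or within 10 kb (62.5%), whereas 4168 of 21887 protein-coding genes did (19.0%). The exact 95% interval of the member share ran from 24.5 to 91.5% and covers counting error only. The count holds Cd3d and Cd3g, which share their intervals, and Cd4 and Ptcra, whose interval lay at another gene. When the rule was narrowed to the body and 1 kb, 3 of the 8 remained, Cd3d, Cd3g and Cd8b1 (37.5%, exact 95% interval 8.52 to 75.5%), against 3111 of all protein-coding genes (14.2%). The member genes were chosen with earlier results known, and 8 genes on few chromosomes are not independent draws, so nothing particular to them is read from these shares.

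**Figure D4:**
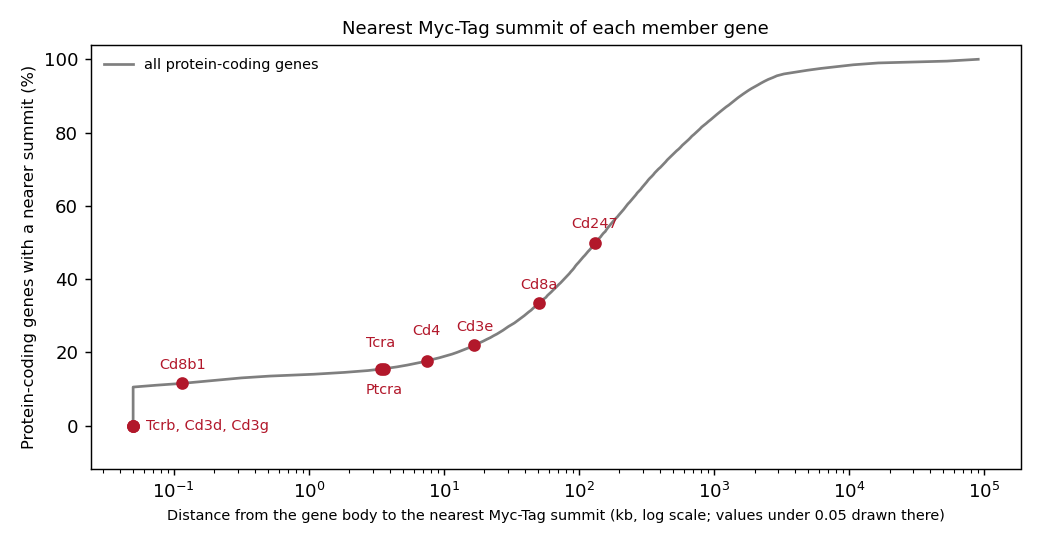
Distance from the body of each gene to the nearest Myc-Tag summit in kb on a log axis against the percentage of protein-coding genes that are nearer, as a gray curve for all protein-coding genes and red points for the 10 members, with distances under 0.05 kb drawn at 0.05 kb. Tcrb, Cd3d and Cd3g have a summit in the body, 4 further members have one within 10 kb, and Cd3e, Cd8a and Cd247 lie at 16.8, 50.8 and 132 kb.

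The median distance to the nearest summit was 5.53 kb for the 8 protein-coding members, against 134 kb for all protein-coding genes. It was 3.51 kb when the long loci Tcra and Tcrb, which are not protein-coding genes of the annotation, were added. The value of 5.53 kb falls between Ptcra at 3.6 kb and Cd4 at 7.46 kb, whose nearest summit was inside another gene. Cd3e and Cd8a were measured to the summits of Cd3d and Cd8b1, so the member distances are not independent. Member distances ran from a summit in the body at Tcrb, Cd3d and Cd3g to 132 kb at Cd247. For Cd3e, 21.9% of the protein-coding genes had a nearer summit, and for Cd8a 33.4%.

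The words searched in the promoter windows were TAATT for homeodomain factors, TGTGGT for Runx factors, CAGNTG for E proteins, known as the E-box, and CCGGAA for Ets factors, each on both strands. TAATT was found in 27.0% of all 32851 windows. Of the 6 member windows, only that of Cd247 held it, with 2 copies, and no interval was called there. The windows of Cd3g and Cd3d, which did have an interval, held none. In windows touched by an interval, TAATT was present in 14.1% of 2383, and in 28.0% of the 30468 others. For the E-box word these shares were 36.6% and 52.6%, for the Runx word 9.95% and 17.3%, and for the Ets word 37.5% and 13.1%. A touched window need not lie inside the interval, and whole intervals were not searched here. The paper reports TAATT as the main motif in its own search of the binding sequences. The touched windows had a median GC content of 63.3%, against 52.0% in the others, and the part of base composition in these differences was not tested. Member windows ranged from 42.3% GC at Cd3d to 61.7% at Ptcra. The E-box word was in all 6 member windows and in 51.4% of all windows, with 3 copies each at Cd3g and Ptcra. In the 250 bases before the start it was in 4 of the 6, without Cd3e and Cd8a, and in 44.8% of all windows. The Runx word, present in 16.8% of all windows, and the Ets word, present in 14.9%, were each in 0 of the 6. Only these exact words were searched, so a count of 0 does not show that a window lacks a site for the factor. A match is a run of letters and not a binding site, and the sequence under the summits at Tcra, Tcrb, Cd4 and Cd8b1 was not analysed here.

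Other genes of the pathway were taken as lists, beside the same 19.0% of all protein-coding genes. Of 20 genes of proximal signaling, the kinases and adaptors that carry the receptor signal, 9 had an interval in the body or within 10 kb. The tallest were at Ptpn22, a phosphatase that restrains the signal, with heights of 23 and 35, and at Grap2, an adaptor, with 31. The Ptpn22 interval of height 23 had its summit in the gene body. The interval of height 35 lay outside the Ptpn22 body and was counted through the 10 kb distance. Lck, the kinase brought by CD4 and CD8, had an interval of height 17 whose summit lay 220 bp from the second of its annotated starts. Because the transgene carries Lck sequences, fragments from the transgene and from the native gene cannot be told apart there. Zap70 and Lat, which act directly on the CD3 chains and downstream of them, had none, with the nearest summit at 204 and 24.2 kb.

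Of 5 genes of receptor assembly, 1 had an interval. This was Rag2, a subunit of the recombinase that joins V, D and J segments, with a height of 11 and a summit 72 bp outside the gene. Its partner Rag1, 13.6 kb from the same summit, had none, nor did Dntt, Tcrd and Tcrg. Of 12 genes for other T-cell surface proteins, 3 had an interval, namely Cd28, a costimulatory receptor, with a height of 17, Il2ra with 16 and Cd44 with 11.

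Transcription factors known from T-cell development formed the list with the highest share, which was not tested against the others. Of 16 such genes 13 had an interval (81.2%), with a median height of 13 over 21 intervals, against 16 for all summits. Only Ets1, Tcf12, Ikzf1 and Ikzf3 had a summit at or above 16, and 10.7% of all protein-coding genes had an interval of that height. The list was chosen with earlier results known, so nothing particular to it is read from its share. Satb1, a chromatin organizer of thymocytes, had 4 intervals, each of height 11, and Ets1 had 3 with heights of 20, 13 and 12. Ikzf1 and Ikzf3, of the Ikaros family, had the tallest, at 25 each. Both of these intervals lay outside the gene body, with the Ikzf3 summit 6690 bp away. The Ikzf1 interval with its summit in the body had a height of 14. Runx3, Tcf3 and Zbtb7b had none, and the last of these encodes the factor that directs cells to the CD4 lineage. Genes for surface receptors of B, natural killer and myeloid cells had intervals within 10 kb at 4 of 14, among them Cd79a, a signaling chain of the B-cell receptor, and Klrb1c, a natural killer cell receptor. In the body or within 1 kb it was 0 of these 14 (a count of 0 leaves room for at most 21.4%, by the same approximate 95% limit as above). The corresponding counts were 10 of 16 transcription factors, 8 of 20 signaling genes, 2 of 12 surface proteins and 1 of 5 assembly genes, beside the 14.2% above.

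**Figure D5:**
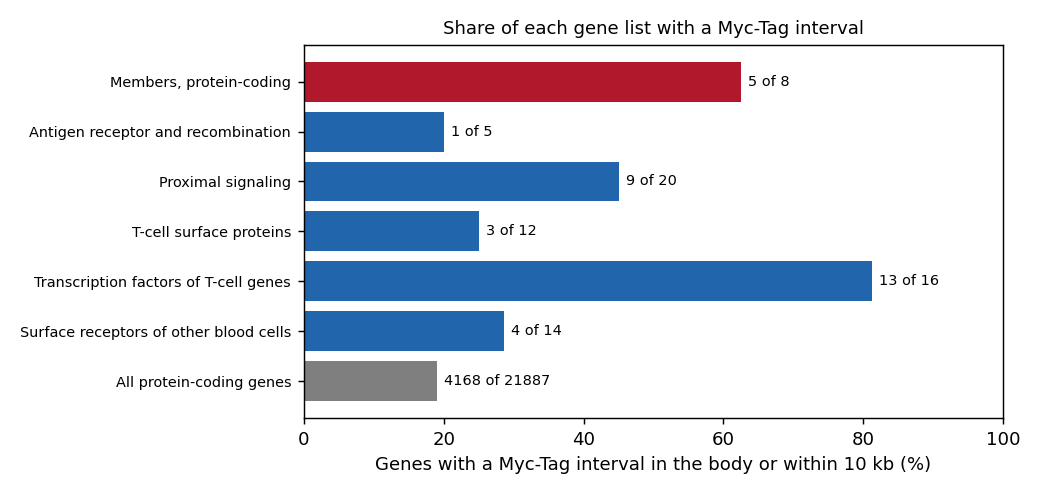
Percentage of genes with a Myc-Tag interval in the body or within 10 kb for the protein-coding members (red), 5 other lists (blue) and all protein-coding genes (gray), with the counts beside each bar. The members stand at 5 of 8, the transcription factor list at 13 of 16, and all protein-coding genes at 19.0%.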

How the data were processed

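ChIP-seq of 1 Myc-Tag ChIP and 1 Input library was carried out and analyzed by Active Motif on an Illumina GA II, with peak calling by the p-value of MACS. The submitters' processing notes name BWA and mm9. Coordinates were read as mm10, since an interval on chromosome Y ends at 90813302, beyond the end of that chromosome in mm9. The authors deposited tracks of intervals and summits for each library. The value they deposited with each summit is a score, its height, of unstated normalization. The threshold of the caller is not given in the sources used here, nor whether Input or IgG served as its control. Of the 3477 Myc-Tag summits 3329 lay on multiples of 16 bp, so positions are not exact to the base. Interval starts were counted from 1, and each interval held 1 summit.

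Intervals were joined to gene bodies of the RefSeq table (GRCm38.p6) and to 32851 RefSeq promoter windows, which also gave strands. The windows covered 6 of the 10 members, and Tcra, Tcrb, Cd4 and Cd8b1 had no entry. Libraries were grouped by their titles. Genes named are the members, 5 lists of other genes, genes that a member interval overlaps, and the coding genes nearest to the summits described. Segments, Dad1, Prss2, Gpr162 and the immunoglobulin loci were named after their values were seen. Members and lists were chosen with earlier results of these data known. The result of 1 listed gene is not reported here. The member shares have exact 95% binomial intervals. The joins ran in Python 3.11.15 with pandas 2.3.3 and numpy 2.4.6, the intervals of shares in scipy 1.17.1, and the plots in matplotlib 3.10.9. The overlap rule was tested on simulated data with 21887 genes, where 200 of 200 genes given an interval were recovered at distances of 0, 1 and 10 kb. The distance of 50 kb was not simulated. Alternatives varied the distance, height threshold, overlap, treatment of input calls, gene set, promoter window and assignment to the nearest gene.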

Additional observations from a re-analysis of the deposited data

How the results depend on the processing

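Of 43 comparisons of a count or share with an alternative, 22 stayed within 1.5 times the count, or within the 95% Wilson interval of a share, and 21 moved. The number of members with an interval, 7, and the number of intervals at them, also 7, were both 4 at distances of 0 and 1 kb, both 3 when the median height was required, and both 1 when the 75th percentile was required, which left Tcra. The 26 of 53 other pathway genes fell to 11 and 5 under the same height thresholds. The share of protein-coding genes with an interval, 19.0%, was 13.4% at 0 kb, 14.2% at 1 kb, 33.3% at 50 kb, 10.7% and 6.05% under the height thresholds, 13.2% with each interval counted for the nearest gene only, and 11.7% over all annotated genes. With windows of the 250 bases before the start, 25% held the homeodomain word TAATT, 14% the Runx word, 44.8% the E-box word and 12% the Ets word. Requiring 50% of the interval or the summit inside, or leaving out intervals called in the Input, left 7 members and 26 pathway genes. No interval at these genes was called in the Input, so leaving such intervals out could not change these counts. Each interval held 1 summit, so taking the summit nearest its middle could not change the median height of 15 at the members. These fixed outcomes are among the 22 that stayed. The number of intervals at a single member was equal to that reported in 62 of 90 comparisons and differed in 28. The nearest-gene assignment was chosen after seeing the data. At 50 kb, 8 members had an interval, Cd3e being added. No paired analysis was possible because the Myc-Tag ChIP and the Input are single libraries, nor could any replicate be dropped. A member without an interval is one where none was called at an unknown depth.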

Other observations

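The immunoglobulin loci, which B cells assemble with the same recombinase, were outside the comparisons above. No Myc-Tag interval lay in the body or within 10 kb of Igh, Igk or Igl. The nearest summits were 258 kb from Igh, 65.5 kb from Igk and 150 kb from Igl, with heights of 13, 24 and 15. Igh holds 215 annotated segments, Igk 168 and Igl 12. Fcer1g, whose product is related to the ζ chain of Cd247 and serves Fc receptors, was likewise without an interval, at 53.5 kb from the nearest summit.

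The distances from the member summits to the neighboring Myc-Tag summits ranged widely, from 1.78 kb between Cd3g and Cd3d to 1950 kb at Tcra, with a median of 192 kb for all summits. Beyond the Cd3d summit the next was 925 kb away, and before the Tcrb summit 1080 kb away, with 16.9% of all distances between neighboring summits longer than the latter. On the other side of Tcrb the next summit was 50.3 kb away, and on the other side of Tcra 133 kb. The neighbors of the Ptcra summit were at 106 and 30.5 kb, those of the Cd4 summit at 116 and 108 kb, those of the Cd8b1 summit at 478 and 222 kb, and the one before the Cd3g summit at 59.3 kb.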
